A study of Homo sapiens with 24 samples.

Results

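The genes described here are 103 genes of U2-OS cells whose array signal lay at or below an intensity of 100 without drug and above it after 200 nM THZ531. They were chosen from these arrays among 18132 genes, each represented by its probe set with the highest mean over all 24 arrays. A gene entered when its mean log2 intensity over the U2-OS arrays was above log2(100), which is 6.64, at 200 nM and not above it in DMSO, when the group means differed by at least 0.4, and when every 200 nM array lay above every DMSO array. The values of these 6 arrays therefore chose the genes, and differences between U2-OS arrays that include DMSO or 200 nM are given as a description with no test. Both U2-OS and SJSA-1 are established lines from human osteosarcoma, a bone tumour, and each was treated for 6 h with THZ531 at 50, 200 or 800 nM or with DMSO as vehicle, with 3 Affymetrix PrimeView arrays in each of the 8 groups. Whether the 3 arrays of a group stem from separate cultures is not given by the labels or the methods, so that p-values cover only the spread among these arrays, possibly a technical one. The methods name TRIzol for the RNA, while the extraction text of the labels speaks of another tissue and another kit.

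THZ531 is a covalent inhibitor of CDK12 and CDK13, kinases that pair with cyclin K and phosphorylate the C-terminal domain of RNA polymerase II while it transcribes. Loss of CDK12 activity is best known for lowering full-length transcripts of long genes, among them DNA repair genes, and for raising transcripts that end early at polyadenylation sites within introns. Growth factor ligands such as HBEGF and stress factors such as ATF3, both among the 103 genes, are known as genes that cells hold at a low level and raise within hours of a stimulus.

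The genes were switched on only in the sense that they crossed the intensity limit. In U2-OS the means over the 3 DMSO arrays ran from 5.18 to 6.63 on the log2 scale, with a median of 6.32 over the 103 genes, which stood above the median of 5.57 over all genes. Just inside the limit in DMSO were SIRT1 and HK2, with DMSO means of 6.63 and 6.62, and just outside were PDCD11 and CEP78 at 6.66 and 6.69. At 200 nM, DENND1A and OTUD6B passed with means of 6.65 each, and TCIM and DENND5B missed with 6.64 each, although TCIM differed by 1.73 between 200 nM and DMSO. EXOG and STK3 met the smallest difference with 0.40 and 0.41, and TRAPPC10 and NUFIP1 missed it with 0.39 each. In ANKRD50 and FAM199X the lowest 200 nM array stood 0.04 above the highest DMSO array, and no gene was turned away by that condition alone. A limit of 200 in place of 100 selected 91 genes, 2 of them among the 103, and a limit of 50 selected 58, 3 of them shared. A difference of at least 1, which is 2-fold, was met by 10 of the 103 genes.

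The arrays had median intensities between 30.1 and 33.6. The poly-A controls, RNAs added to each sample before labelling, had mean log2 intensities of 5.21, 5.66 and 6.05 at 50, 200 and 800 nM in U2-OS, against 5.11 in DMSO, and of 6.53, 6.50 and 6.57 in SJSA-1, against 6.03 in DMSO. When all arrays were shifted to equal poly-A and hybridization controls, 26 genes met the rule, 17 of them among the 103, so that every direction given below is relative to the other genes of an array. MDM2, which is amplified in SJSA-1, averaged 10.66 ± 0.10 on the log2 scale in the DMSO arrays of SJSA-1 and 7.18 ± 0.031 in those of U2-OS (SD, n = 3). Of 11 osteoblast markers, 5 lay above an intensity of 100 in U2-OS (RUNX2, SPP1, COL1A1, BMP4 and SPARC) and 1 in SJSA-1 (SPARC). Of 11 markers of neurons and glia, 1 lay above it in U2-OS (NEFL) and 0 in SJSA-1, and of 9 markers of leukocytes and endothelium 0 did in either line.

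Promoter letters were at hand for 86 of the 103 genes, from RefSeq on GRCh38.p14, and 5 stretches of 120 bases before a start site are shown because they hold a motif of note or serve a pair of the genes. Capitals mark only the CArG box, TATAAA and TGACGTCA, and the stretch of TAF5L held none of the motifs searched. GGGCGG was searched too and is left in lower case in the stretches of MAFF and KITLG. TAF5L and URB2, both among the 103, start 0.125 kb apart on opposite strands of chromosome 1, so that the stretch given for TAF5L holds nearly all of the space between them. ACTC1 has a CArG box, the site of serum response factor, and a TATA box (TATAAA). MAFF has the palindrome TGACGTCA, known as a cyclic AMP response element, and KITLG and EDN1 each have TATAAA close to the start.
TAF5L, minus strand, chr1:229626123-229626242: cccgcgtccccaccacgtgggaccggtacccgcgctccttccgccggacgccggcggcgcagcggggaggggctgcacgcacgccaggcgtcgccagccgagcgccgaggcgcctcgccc
ACTC1, minus strand, chr15:34795550-34795669: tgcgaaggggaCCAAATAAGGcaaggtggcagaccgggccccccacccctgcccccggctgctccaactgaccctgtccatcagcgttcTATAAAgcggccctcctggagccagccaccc
MAFF, plus strand, chr22:38201874-38201993: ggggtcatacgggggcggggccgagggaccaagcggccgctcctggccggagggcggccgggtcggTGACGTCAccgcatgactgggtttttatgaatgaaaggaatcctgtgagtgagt
KITLG, minus strand, chr12:88580472-88580591: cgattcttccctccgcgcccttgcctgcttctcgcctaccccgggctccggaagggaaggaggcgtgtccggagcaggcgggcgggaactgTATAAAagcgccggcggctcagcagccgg
EDN1, plus strand, chr6:12290241-12290360: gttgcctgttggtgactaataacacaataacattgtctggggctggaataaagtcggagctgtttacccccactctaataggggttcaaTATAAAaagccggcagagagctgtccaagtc

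Over windows from 250 bases before to 50 bases after each listed start, searched on both strands, TATAAA was present in 14.0% of the 86 genes and in 12.1% of the 14424 genes on the array with a promoter in the table. The palindrome TGACGTCA stood in 3.49% against 3.11%, and TGACTCA, the AP-1 site, in 4.65% against 5.42%. CCAAT was present in 43.0% of the 86 genes and 42.4% of all, and a CArG box in 1.16% and 1.74%. GGGCGG, a GC box, was the motif whose shares lay farthest apart, at 81.4% of the 86 genes and 65.7% of all. A match is a run of letters and not a measured site, and genes with several listed starts had several windows.

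In U2-OS the 103 genes climbed with the dose. Their median difference from DMSO was 0.21 at 50 nM, 0.62 at 200 nM and 0.97 at 800 nM on the log2 scale, of which the value at 200 nM follows from the choice of the genes. The means stood in the order DMSO, 50, 200 and 800 nM in 93 of the 103 genes, an order that 13.8% of all 18132 genes had. The rule itself set 200 nM above DMSO and used the DMSO arrays. This order and the counts against DMSO that follow are therefore partly fixed by it. The shares of all genes beside them are a description with no test. At 50 nM every array lay above every DMSO array in 57 of the 103 genes (7.65% of all genes), and at 800 nM in 99 (21.1% of all genes). At 800 nM 48 genes were at least 2-fold above DMSO, a count not made over all genes. Of the 103, 100 were still above an intensity of 100 (35.6% of all genes), the others being EXOG, UBASH3B and ZNF428. Replicate 2 at 200 nM was the lowest of its 3 arrays in 68 genes, with a median of 6.83 against 6.97 and 7.0 in the others, and without it the rule selected 124 genes, 98 of them among the 103.

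**Figure D1:**
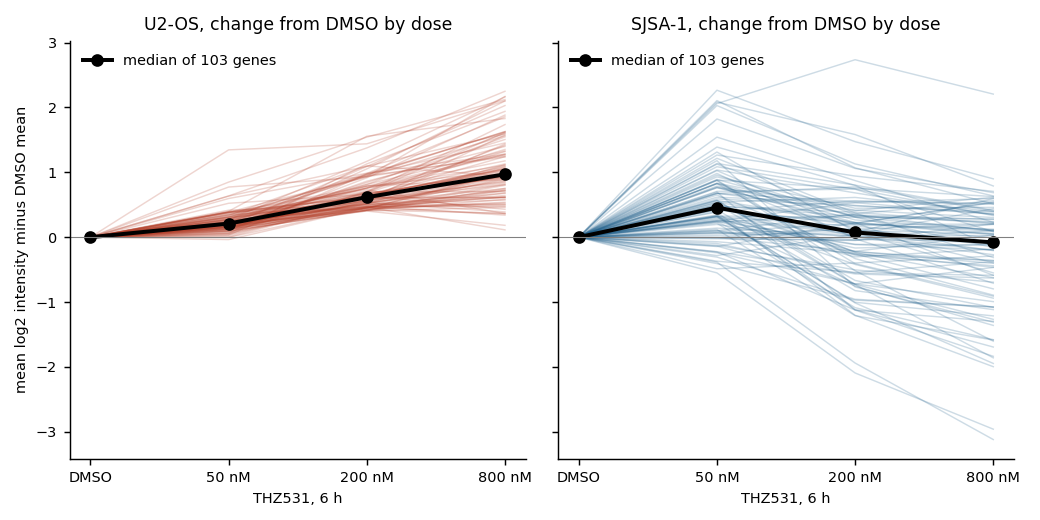
Mean log2 intensity minus the DMSO mean of the same line for each of the 103 genes (thin lines) and their median (black), at DMSO, 50, 200 and 800 nM THZ531, in U2-OS (left) and SJSA-1 (right). The median climbs to 0.97 at 800 nM in U2-OS, and in SJSA-1 it is highest at 50 nM, at 0.46, and lies at -0.08 at 800 nM.

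The first test that does not use the arrays of the rule set 800 nM against 50 nM in U2-OS. With limma and adjustment over all 18132 genes, 92 of the 103 genes were higher at 800 nM than at 50 nM, 1 was lower and 10 did not pass, while 12.4% of all genes were higher and 18.2% lower. The median change was 0.76 over the 103 genes and -0.0033 over all genes. TAF5L, a subunit of the SAGA coactivator complex, rose most, by 2.0 ± 0.0672 (SE, adjusted p = 7.43e-07), and after it came SAT1, an acetyltransferase of polyamines, NDST1, an enzyme of heparan sulphate synthesis, DMXL1, a regulator of the vacuolar proton pump, ADAMTS12, a secreted metalloprotease, and HAUS3, a subunit of the augmin complex of the spindle, with 1.90, 1.89, 1.88, 1.85 and 1.78. These values rest on the probe set that stands for each gene. Another probe set of NDST1 fell by 0.65 (limma over all probe sets, adjusted p = 0.000287), and others of it rose by 0.40 and 0.57. The other probe sets of HAUS3 (-0.083 and 0.067), ADAMTS12 (-0.14) and TAF5L (0.06) did not pass. Those of SAT1 rose by 1.61 and 1.06, and those of DMXL1 are given below. The gene that fell was UBASH3B, a tyrosine phosphatase, by 0.24 ± 0.0757 (SE, adjusted p = 0.0397), a call that was lost without replicate 1 or 2 at 50 nM or any 1 of the 800 nM arrays. With arrays shifted to equal poly-A and hybridization controls the median was 0.23 with 45 genes higher and 11 lower, and with the poly-A controls alone it was -0.079 with 19 higher and 16 lower. The hybridization controls alone gave a median of 0.64. Over all genes the median was -0.53 with both kinds of control and -0.84 with the poly-A controls alone. With the hybridization controls alone it was -0.12. Whether the controls or the genes are the better scale was not tested.

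In SJSA-1, whose arrays the rule did not use apart from the choice of the probe set of each gene, the same genes followed another course. At 50 nM against DMSO 72 of the 103 genes were higher, 8 lower and 23 did not pass, while 17.1% of all genes were higher and 21.9% lower. At 200 nM 42 were higher and 37 lower, beside 33.6% and 22.9% of all genes, and at 800 nM 30 were higher and 45 lower, beside 24.5% and 20.9%. The 3 comparisons share their DMSO arrays. The median changes from DMSO were 0.46, 0.073 and -0.08 at 50, 200 and 800 nM, with 0.04, 0.10 and 0.07 over all genes. The highest mean lay at 50 nM in 73 of the 103 genes, as it did in 17.8% of all genes, and the means fell from 50 through 200 to 800 nM in 77, against 19.9% of all genes. With both kinds of control as the scale the median at 50 nM was 0.072, and -0.34 over all genes. The count was then 35 higher and 25 lower. The changes of DYRK2, EDN1, HK2 and RBM33, given as rises below, lay under 0 on that scale. With the average over a gene's probe sets, those of HAUS3, KMT5B, STK17B and TAF3 lay under 0.

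Set directly against each other, 800 nM and 50 nM in SJSA-1 left 78 of the 103 genes lower at 800 nM, 7 higher and 18 not passed, where 16.2% of all genes were lower and 20.1% higher. The median change was -0.57, and 0.027 over all genes. In 38 of the 103 genes the fall was at least 2-fold, a count not made over all genes. The test of the difference itself, the change at 800 against 50 nM in U2-OS minus that in SJSA-1, found it higher in U2-OS for 92 of the 103 genes and lower for 2, beside 16.8% and 22.6% of all genes, with a median of 1.48 on the log2 scale over the 103 genes. In 74 genes the change on the deposited scale was upward in U2-OS and downward in SJSA-1, each past the threshold. How many of all genes had both calls was not counted. The 2 genes that lay the other way, ITPR1, a calcium channel of the endoplasmic reticulum, and STK3, a kinase of the Hippo pathway, differed by -0.45 (adjusted p = 0.0138) and -0.37 (adjusted p = 0.00876). With the average over a gene's probe sets neither of them passed, at -0.071 (adjusted p = 0.623) for ITPR1 and 0.14 (adjusted p = 0.235) for STK3. With both kinds of control and with the poly-A controls alone as the scale, the medians over the 103 genes were 0.96 and 0.68 for the difference and -0.58 and -0.61 for SJSA-1, while that of U2-OS was 0.23 and -0.079, so that the upward direction in U2-OS did not stand with the poly-A controls alone. Over all genes the medians with both kinds of control and with the poly-A controls alone were -0.55 and -0.83 for the difference. They were 0.012 and -0.0093 for SJSA-1 and -0.53 and -0.84 for U2-OS. With the hybridization controls alone the median of U2-OS was 0.64, with 99 genes above 0. The poly-A controls had an SD of 0.36 over the U2-OS arrays at 50 nM and of 0.010 at 800 nM.

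**Figure D2:**
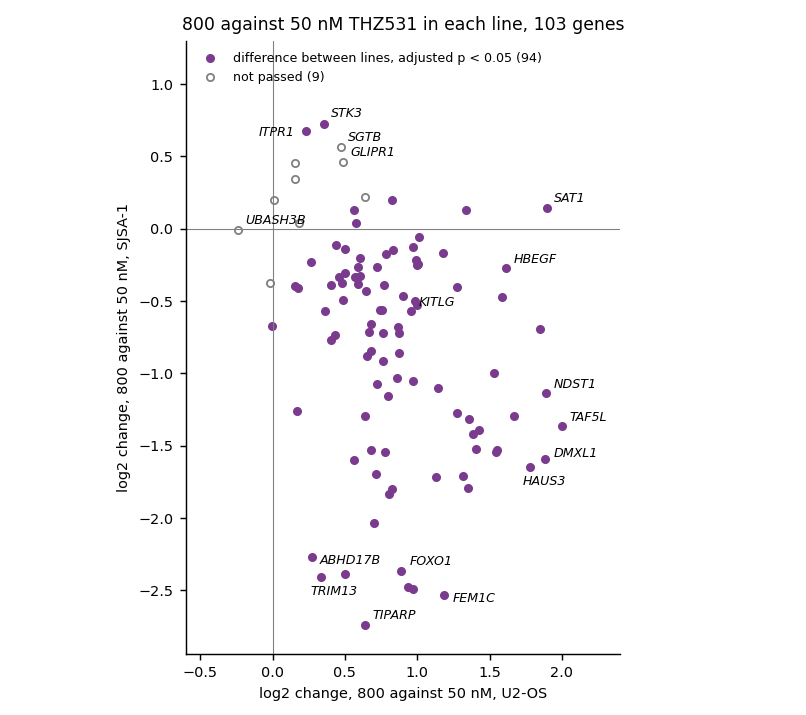
Log2 change at 800 against 50 nM THZ531 in U2-OS (horizontal) and SJSA-1 (vertical) for the 103 genes, filled where the difference between the lines had an adjusted p under 0.05 (limma, 94 genes). On the deposited scale most genes lie in the lower right, higher at 800 nM in U2-OS and lower in SJSA-1. The median in U2-OS was -0.079 with the poly-A controls alone as the scale and 0.64 with the hybridization controls alone. Over all genes it was -0.84 and -0.12.

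**Figure D3:**
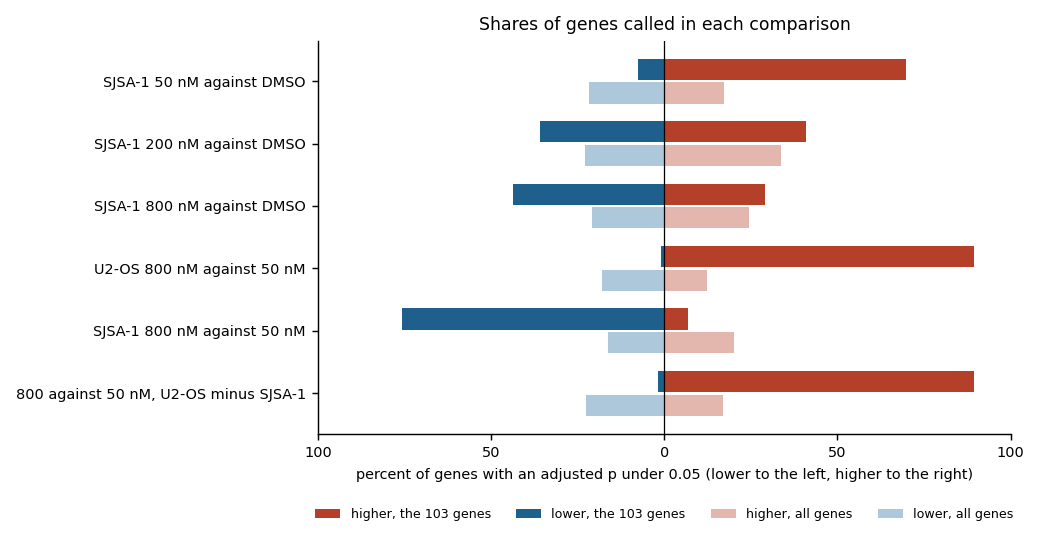
Percent of genes higher (right) and lower (left) with an adjusted p under 0.05 in each of 6 comparisons, for the 103 genes (dark bars) and all 18132 genes (light bars). In SJSA-1 the dark bars to the right shorten with dose, standing for 72 genes at 50 nM, 42 at 200 nM and 30 at 800 nM.

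Of the 8 ligands, receptors and extracellular proteases, 8 were higher at 800 than at 50 nM in U2-OS, 8 were higher at 50 nM than in DMSO in SJSA-1, and 8 were lower at 800 than at 50 nM in SJSA-1. Beside these and the counts of the other role groups below stand 89.3%, 69.9% and 75.7% of the 103 genes in the same comparisons. Of all genes 12.4%, 17.1% and 16.2% were called in these directions, and 18.2%, 21.9% and 20.1% in the opposite ones. Whether any role group differs from the 103 genes as a whole was not tested. HBEGF encodes a heparin-binding ligand of the EGF receptor. In U2-OS its log2 intensities were 7.02, 7.0 and 6.98 at 50 nM, 7.72, 7.75 and 7.75 at 200 nM and 8.64, 8.62 and 8.58 at 800 nM, against 6.47, 6.36 and 6.26 in DMSO. The 4 groups did not overlap, and each dose stood above the one before, though the gap between 200 nM and DMSO was part of the rule. In SJSA-1 HBEGF was far above the limit without drug, at 9.65, 9.70 and 9.71, 9.80, 9.79 and 9.77 and 9.37, 9.41 and 9.46 at the 3 doses, against 8.93, 9.11 and 8.99 in DMSO. It was higher than DMSO at each dose, by 0.68 (adjusted p = 6.47e-07), 0.78 (adjusted p = 1.17e-07) and 0.40 (adjusted p = 7.12e-05), and its highest mean was at 200 nM. At 800 against 50 nM U2-OS changed by 1.61 and SJSA-1 by -0.27, a difference of 1.89 ± 0.0707 (SE, adjusted p = 2.27e-10).

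KITLG, the ligand of the receptor KIT whose TATA box is shown above, had 7.52, 7.58 and 7.56 in U2-OS at 200 nM, against 6.61, 6.43 and 6.34 in DMSO, a mean difference of 1.09. In SJSA-1 it had 8.28, 8.19 and 8.18 at 50 nM, against 7.42, 7.41 and 7.50 in DMSO, a rise of 0.77 (adjusted p = 1.45e-06). JAG1, a Notch ligand, was one of the few genes to cross the limit of 100 in both lines at 200 nM. It had 7.31, 7.03 and 7.33 in U2-OS at 200 nM, against 6.44, 6.49 and 6.30 in DMSO, where the gap was part of the rule. In SJSA-1 it had 6.74, 6.55 and 6.66 at 200 nM, against 5.65, 5.90 and 5.78 in DMSO, with no overlap there either. In SJSA-1 the rise was 1.54 at 50 nM and 0.87 at 200 nM (adjusted p = 1.12e-07 and 1.93e-05), and at 800 nM its change of 0.23 (adjusted p = 0.103) did not pass. BMP2, a bone morphogenetic protein, stayed below the limit in SJSA-1, with 5.20, 5.14 and 5.20, 4.82, 4.94 and 4.76 and 4.02, 4.03 and 4.03 at the 3 doses, against 4.45, 4.80 and 4.59 in DMSO. Its 800 nM arrays lay below all DMSO arrays, with a change of -0.59 (adjusted p = 4.62e-05). ADAMTS12 rose at all 3 doses in SJSA-1, by 1.04, 0.68 and 0.35. EDN1, the precursor of endothelin, and ACVR2A, an activin receptor, rose at 50 nM by 0.30 and 1.18 and fell at 800 nM by 0.55 and 1.31.

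**Figure D4:**
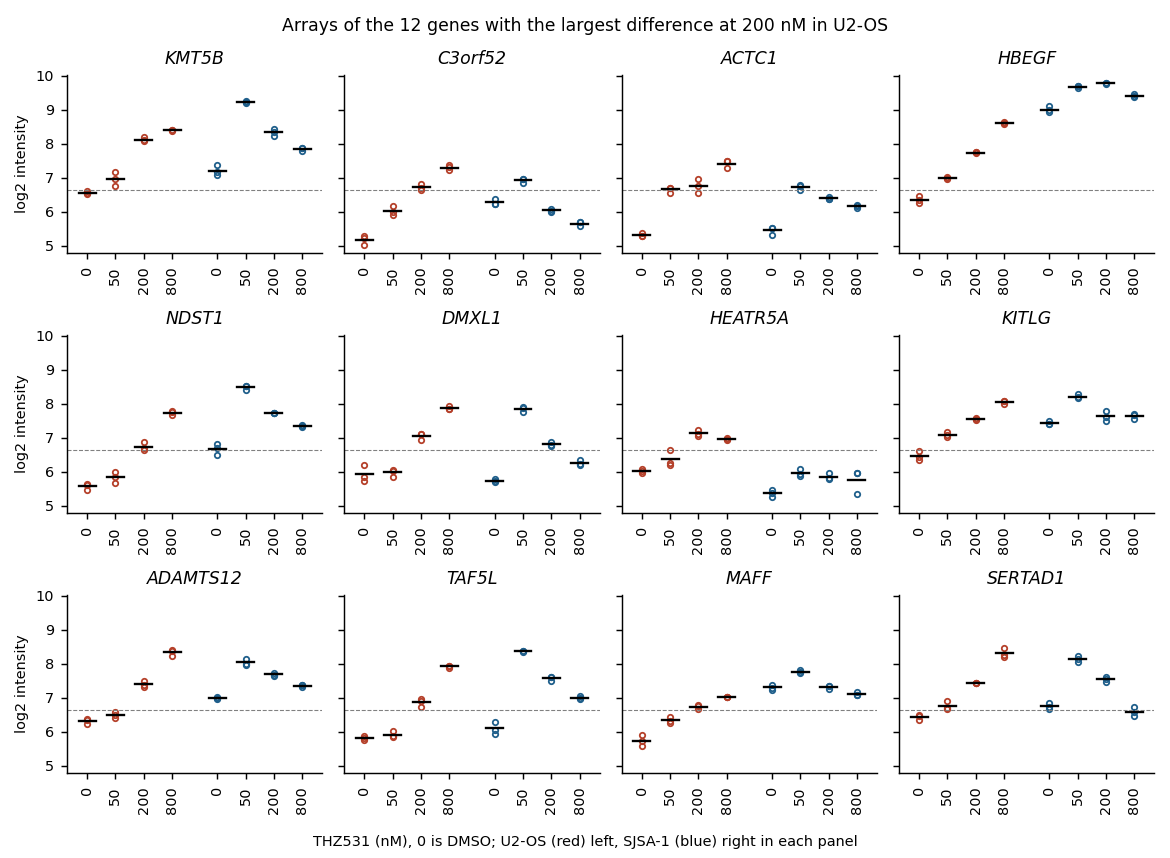
Log2 intensity on each array (circles) with the mean of 3 (bars) for the 12 genes with the largest difference between 200 nM and DMSO in U2-OS, by dose of THZ531 in nM, with U2-OS in red at the left and SJSA-1 in blue at the right. The dashed line is an intensity of 100, and in U2-OS the 800 nM arrays are the highest in 11 of the 12 genes, HEATR5A being the exception by its mean.

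Of 16 transcription factors and chromatin regulators, 15 rose between 50 and 800 nM in U2-OS, and in SJSA-1 13 were higher at 50 nM than in DMSO and 14 lower at 800 than at 50 nM. KMT5B, a methyltransferase of histone H4 lysine 20, had the largest difference of the 103 genes at 200 nM. Its log2 intensities in U2-OS were 8.10, 8.08 and 8.19 at 200 nM, against 6.61, 6.55 and 6.54 in DMSO, or 2.94-fold on average. In SJSA-1 it had 9.27, 9.24 and 9.21 at 50 nM and 7.80, 7.87 and 7.87 at 800 nM, against 7.08, 7.17 and 7.38 in DMSO, so that it was highest at the lowest dose, with a change of 2.03 ± 0.079 (SE, adjusted p = 1.14e-09). Other probe sets of this gene moved the other way, as given below.

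ATF3, a stress-induced factor of the bZIP class, did not overlap between 800 nM and DMSO in U2-OS. It had 6.59, 6.43 and 6.57 at 50 nM, 7.09, 7.19 and 7.12 at 200 nM and 8.19, 8.08 and 7.91 at 800 nM, against 6.33, 6.43 and 6.57 in DMSO, so that it overlapped with DMSO at 50 nM and was highest at 800 nM. In SJSA-1 it had 6.39, 6.41 and 6.39 at 50 nM and 5.41, 5.30 and 5.48 at 800 nM, against 5.34, 5.24 and 5.35 in DMSO, with changes of 1.09 (adjusted p = 2.86e-08) and 0.09 (adjusted p = 0.302). The difference between the lines at 800 against 50 nM was 2.53 (adjusted p = 5.7e-10). MAFF, a small Maf protein whose promoter is shown above, rose by 0.46 at 50 nM in SJSA-1. Its fall of 0.20 at 800 nM was lost with arrays centred on their median (adjusted p = 0.158), with a second quantile normalization (adjusted p = 0.212) and without DMSO replicate 1 (adjusted p = 0.0602). SERTAD1, which binds CDK4 and acts as a transcriptional coregulator, rose there by 1.39 at 50 nM and 0.80 at 200 nM, and its change of -0.15 at 800 nM did not pass.

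TIPARP, an ADP-ribosyltransferase induced by the aryl hydrocarbon receptor, showed the deepest fall of the 103 genes in SJSA-1. It had 8.83, 8.71 and 8.79, 7.35, 7.13 and 7.18 and 6.01, 6.15 and 5.96 at the 3 doses, against 9.06, 9.20 and 9.22 in DMSO, with changes of -0.38, -1.94 and -3.12 (adjusted p = 6.21e-12). The change at 50 nM did not pass with the average over its probe sets, at -0.125 (adjusted p = 0.121). In U2-OS the same gene had 7.14, 7.04 and 7.15 at 200 nM and 7.42, 7.40 and 7.45 at 800 nM, against 6.59, 6.53 and 6.64 in DMSO. FOXO1, a forkhead factor, and SIRT1, an NAD-dependent deacetylase, fell in SJSA-1 at 200 nM by 0.73 (adjusted p = 3.76e-06) and 1.12 (adjusted p = 1.75e-07). FOXO1 had been higher there at 50 nM by 0.50 (adjusted p = 0.000131), and SIRT1 at 50 nM changed by -0.23 (adjusted p = 0.0544). ZNF227 and ZNF529, zinc finger genes, rose at 50 nM by 0.57 and 0.88 and fell at 800 nM by 1.27 and 0.91, though with the average over its probe sets ZNF529 at 800 nM was at -0.12 (adjusted p = 0.132), while the change of ZNF428, another zinc finger gene, did not pass in either line at 800 against 50 nM. IRF8, an interferon regulatory factor known from blood cells, lay between 4.70 and 5.03 in SJSA-1 by its group means and never reached the limit there.

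The kinases, phosphatases and proteins of G-protein and membrane signalling numbered 14, of which 12 rose and 1 fell between 50 and 800 nM in U2-OS. RGS2, which ends signals of G-protein alpha subunits, had 6.31, 6.17 and 6.31 at 50 nM, 6.84, 6.96 and 6.89 at 200 nM and 8.0, 7.91 and 7.88 at 800 nM in U2-OS, against 6.19, 6.25 and 6.14 in DMSO. Its arrays at 50 nM overlapped with DMSO, and those at the higher doses did not, which at 200 nM was part of the rule. In SJSA-1 it had 7.62, 7.50 and 7.46, 7.10, 6.96 and 7.02 and 6.16, 6.23 and 6.31 at the 3 doses, against 5.41, 5.40 and 5.52 in DMSO, and rose by 2.08, 1.58 and 0.79, most at the lowest dose. STK17B, a death-associated protein kinase, and DYRK2, a dual-specificity kinase, rose in SJSA-1 at 50 nM by 0.87 and 0.32 and fell at 800 nM by 1.60 and 1.95. ITPR1 and STK3 rose at 800 nM there by 0.53 (adjusted p = 0.000113) and 0.44 (adjusted p = 0.000146).

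Among 13 genes of general transcription, RNA processing, the ribosome and translation, 10 rose between 50 and 800 nM in U2-OS, and in SJSA-1 9 fell and 2 rose. TAF5L had 6.98, 6.74 and 6.92 in U2-OS at 200 nM and 7.95, 7.94 and 7.89 at 800 nM, against 5.82, 5.77 and 5.89 in DMSO. In SJSA-1 it had 8.39, 8.35 and 8.37, 7.62, 7.49 and 7.62 and 6.97, 6.99 and 7.05 at the 3 doses, against 6.07, 5.95 and 6.29 in DMSO, with rises of 2.27, 1.47 and 0.90. URB2, a ribosome biogenesis factor that starts on the other side of the same short stretch, had 6.80, 6.79 and 6.91, 5.83, 5.42 and 5.34 and 4.97, 5.18 and 4.96, against 6.61, 6.66 and 6.58 in DMSO. It changed by 0.22 (adjusted p = 0.133), -1.09 (adjusted p = 2.18e-06) and -1.58 (adjusted p = 4.88e-08), so that in SJSA-1 at 200 nM one gene of the pair was higher by this probe set and its neighbour lower, while both rose in U2-OS between 50 and 800 nM, by 2.0 and 0.83. With the average over its 2 probe sets the change of TAF5L was 0.18 (adjusted p = 0.0635) at 200 nM and -0.14 (adjusted p = 0.163) at 800 nM. TAF3, a subunit of TFIID, RCL1, a factor of ribosomal RNA processing, and RBM33, an RNA-binding protein, rose at 50 nM in SJSA-1 by 0.48, 1.03 and 0.34 and fell at 800 nM by 0.44, 0.39 and 1.69. SNAPC3, a subunit of the complex that activates transcription of small nuclear RNA genes, was higher at each dose, by 0.93, 0.45 and 0.46. POLR1A, the largest subunit of RNA polymerase I, was lower in SJSA-1 at each dose, by 0.49, 0.40 and 0.29.

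All 6 genes of the ubiquitin system (FBXW7, FEM1C, TRIM13, UBL3, OTULIN and OTUD6B) rose between 50 and 800 nM in U2-OS, and 5 of the 6 fell in SJSA-1, the median of the 6 being 1.0 and -1.38. FBXW7, which hands MYC and cyclin E to the SCF ligase, had 6.76, 6.58 and 6.75 in U2-OS at 200 nM and 7.63, 7.53 and 7.60 at 800 nM, against 6.27, 6.14 and 6.04 in DMSO. In SJSA-1 it had 5.07, 4.76 and 4.79 at 200 nM and 4.15, 4.84 and 4.50 at 800 nM, against 5.84, 6.24 and 6.17 in DMSO, where it started at a like level. The fall at 200 nM was 1.21 (adjusted p = 3.52e-05), and both of its other probe sets lay lower at 200 nM as well. FEM1C, a substrate receptor of a cullin 2 ligase, showed the largest difference between the lines at 800 against 50 nM, 3.72 ± 0.0924 (SE, adjusted p = 2.84e-11), where U2-OS changed by 1.18 and SJSA-1 by -2.53. TRIM13, a ligase of the endoplasmic reticulum membrane, fell in SJSA-1 at each dose, by 0.55, 2.09 and 2.96. TRIM13 overlaps by 21.4 kb with DLEU2, a long non-coding RNA gene that is also among the 103. DLEU2 had 6.90, 6.39 and 6.91 in U2-OS at 200 nM, against 6.31, 6.11 and 5.87 in DMSO, and in SJSA-1 its changes of -0.0033, 0.13 and 0.20 did not pass at any dose. Where the probes of the overlapping pair lie was not examined.

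Of 17 metabolic enzymes, 16 rose between 50 and 800 nM in U2-OS, and 11 fell and 0 rose in SJSA-1. SAT1 had the largest rise of the 103 genes at any dose in SJSA-1. It had 8.83, 8.86 and 8.86, 9.58, 9.50 and 9.50 and 8.97, 9.03 and 8.99 at the 3 doses, against 6.75, 6.73 and 6.89 in DMSO, with changes of 2.06, 2.74 ± 0.0569 (SE, adjusted p = 3.68e-12) and 2.21. In U2-OS it had 6.82, 6.73 and 6.51, 7.54, 7.24 and 7.27 and 8.63, 8.59 and 8.53 at the 3 doses, against 6.34, 6.51 and 6.39 in DMSO, so that the rise was largest at the highest dose. NDST1 had 6.71, 6.64 and 6.89 in U2-OS at 200 nM, against 5.47, 5.61 and 5.65 in DMSO, and was 1.82 higher at 50 nM than in DMSO in SJSA-1. HK2, a hexokinase and the member from the hypoxia list, and CTH, the enzyme that makes cysteine from cystathionine and the member from the ATF4 list, rose at 50 nM in SJSA-1 by 0.25 and 0.83. CA2, a carbonic anhydrase, CYP2J2, a cytochrome P450, NUDT10, a phosphohydrolase, and KCNK5, a potassium channel, lay below a log2 intensity of 5 on all 12 SJSA-1 arrays. CA2 had 7.16, 6.98 and 7.05 in U2-OS at 200 nM, against 6.07, 6.23 and 6.36 in DMSO, and 2.45, 2.68 and 2.42 in SJSA-1 at 200 nM, against 2.42, 2.55 and 2.73 in DMSO. The SJSA-1 arrays of the 2 groups overlapped, and the gap in U2-OS was part of the rule. ABHD17B, a depalmitoylase, fell in SJSA-1 by 1.20 at 200 nM and 2.0 at 800 nM after a rise of 0.39 at 50 nM.

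In the group of cytoskeleton, centrosome and vesicles, 8 of 9 genes rose between 50 and 800 nM in U2-OS and 8 fell in SJSA-1. ACTC1, the alpha actin of heart muscle, was the only gene 2-fold above DMSO by its mean at 50 nM in U2-OS. It had 6.71, 6.57 and 6.71, 6.75, 6.56 and 6.96 and 7.49, 7.49 and 7.28 at the 3 doses, against 5.37, 5.29 and 5.29 in DMSO, and the arrays at 50 and 200 nM overlapped. In SJSA-1 it rose by 1.27, 0.94 and 0.71. HAUS3 rose by 0.56 at 50 nM and fell by 0.67 and 1.08 at 200 and 800 nM. Of the transporters and channels 4 of 6 rose in U2-OS between 50 and 800 nM, and of 4 genes of DNA repair (XPA, RAD18, NHEJ1 and the nuclease EXOG) 3 rose in U2-OS and 4 fell in SJSA-1. C3orf52, which encodes a membrane protein, had 6.70, 6.64 and 6.83 in U2-OS at 200 nM, against 5.23, 5.02 and 5.29 in DMSO, the lowest DMSO mean of the 103 genes. LINC00839, the other non-coding gene, rose in SJSA-1 by 1.14 at 50 nM and 0.80 at 200 nM.

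Among the members of these groups not yet described, RAB30, a small GTPase of the Golgi, and TENT5A, a poly(A) polymerase of the cytoplasm, moved in opposite ways in the lines. They rose at 800 against 50 nM in U2-OS by 1.41 and 1.55, and in SJSA-1 they fell by 1.52 and 1.53 after rises of 1.31 and 1.22 at 50 nM. Smaller rises at 50 nM in SJSA-1 were those of GLUL, the enzyme that makes glutamine, by 0.42, of LYN, a kinase of the SRC family, by 0.43, and of CD83, a surface protein known from dendritic cells, by 0.49. Other genes, by the probe sets that stand for them, did not pass at 50 nM in SJSA-1 and fell at 200 and 800 nM. AHCTF1, a protein of the nuclear pore, fell by 0.96 and 1.07, HOXB6, a homeobox factor, by 0.72 and 0.99, and PIK3R3, a regulatory subunit of PI3 kinase, by 0.50 and 0.69. Another probe set of AHCTF1 fell by 1.87 at 50 nM and ones of PIK3R3 rose by 0.41 and 0.20, and with the average over its probe sets the change of PIK3R3 at 200 nM was -0.15 (adjusted p = 0.0734). Still others were higher in SJSA-1 at 800 nM, among them SLC39A8, a zinc and manganese transporter, by 0.60, EIF5A2, a translation factor, by 0.54, and GLIPR1, a secreted or membrane protein, by 0.56. In U2-OS the changes of SLC39A8 and EIF5A2 at 800 against 50 nM, 0.16 (adjusted p = 0.15) and 0.15 (adjusted p = 0.205), did not pass by these probe sets, while others passed, with rises of 0.39 and 0.23 in SLC39A8 and of 0.54 and 0.69 in EIF5A2. CA13, a carbonic anhydrase, SGMS2, a sphingomyelin synthase, and SLC35D1, a nucleotide sugar transporter, rose in U2-OS by 0.64, 0.57 and 0.97 by the probe sets that stand for them, which passed in no SJSA-1 comparison. Other probe sets of each did pass there at 50 nM against DMSO, with rises of 1.04 in CA13, 0.80 and 0.92 in SGMS2 and 0.56 in SLC35D1. The 8 genes with no role among those above (C3orf52, FAM117B, FAM199X, FAM234B, SLFN12, ANKRD50, SGTB and GLIPR1) were all higher at 800 than at 50 nM in U2-OS, and in SJSA-1 6 were lower and 2 higher.

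Several of the genes carried probe sets that moved apart. Of the 83 genes with over 1 probe set, 12 had at 800 against 50 nM in U2-OS 1 probe set higher and another lower, each with an adjusted p under 0.05 over 44994 probe sets, which is 14.5%, beside 3.53% of the 11735 genes with over 1 probe set. At 50 nM against DMSO in SJSA-1 it was 16 genes or 19.3%, beside 6.96%. The rule chose genes by a rise of the kept probe set in U2-OS. By that probe set 92 and 72 of the 103 genes were higher in these comparisons. Many of them thus needed only another probe set that fell, so that the shares follow in part from the choice of the genes. In KMT5B 2 probe sets rose by 1.43 and 1.34 at 800 against 50 nM in U2-OS, and the other 4 fell by 2.26, 1.71, 0.83 and 0.43. The probe set that fell most had a mean of 7.04 in U2-OS DMSO, above the limit of 100. In DMXL1 the kept probe set rose by 1.88 and the others fell by 0.57 and 0.73, with an average over the 3 of 0.19 (adjusted p = 0.068), and in HEATR5A the kept one rose by 0.61 and the others fell by 0.37 and 1.57. TAF5L had another probe set with a mean of 7.36 at 200 nM, against 7.26 in DMSO, in U2-OS, and in SJSA-1 that probe set fell by 0.63 at 50 nM (adjusted p = 0.00146) while the kept one rose. In all, 6 genes had another probe set above 100 in U2-OS DMSO (CEP76, KMT5B, NDST1, SGTB, TAF5L and ZXDC), so that by those probe sets they were not below the limit. Which transcripts the probe sets read was not tested.

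**Figure D5:**
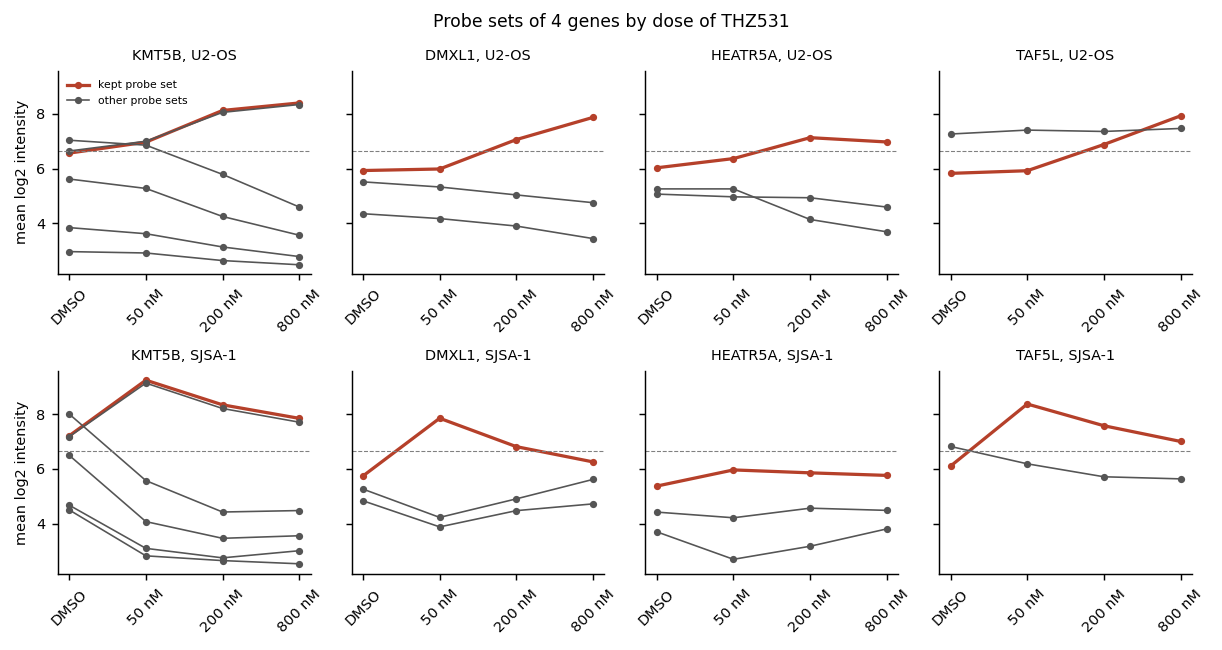
Mean log2 intensity of each probe set (3 arrays) of KMT5B, DMXL1, HEATR5A and TAF5L by dose of THZ531, in U2-OS (top) and SJSA-1 (bottom), with the probe set that stands for the gene in red, the others in grey and an intensity of 100 dashed. In KMT5B, DMXL1 and HEATR5A the grey lines fall in U2-OS where the red line rises, except for 1 grey line of KMT5B that lies with the red one.

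Over the other 198 probe sets of the genes, the median difference between 200 nM and DMSO in U2-OS was 0.30, with 159 above 0. Of the 198, 143 had a DMSO mean at or below an intensity of 50. Using the average over a gene's probe sets, 51 genes met the rule, 26 of them among the 103.

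The 103 genes were longer than most, a property that the rule did not use. The median span of the annotated gene on GRCh38.p14 was 45.6 kb for the 103 genes, 25.8 kb for all genes and 29.3 kb for genes above 100 in U2-OS DMSO. A span under 10 kb was found in 7.77% of the 103 genes and 26.7% of all genes, and a span over 100 kb in 21.4% and 17.5%. In SJSA-1 the 22 genes with a span under 20 kb had a median change from DMSO of 0.62, 0.36 and 0.17 at 50, 200 and 800 nM, and the 59 genes of 20 to 100 kb 0.33, -0.037 and -0.16. The 22 genes over 100 kb had 0.41, 0.072 and 0.092, so that the medians did not fall steadily with span. Over all genes they were 0.073, 0.16 and 0.093 under 20 kb, 0.017, 0.067 and 0.05 from 20 to 100 kb, and -0.02, 0.04 and 0.047 over 100 kb. All but 2 of the 103 genes are annotated as protein coding. Chromosome 13, named because its shares lay farthest apart of all chromosomes, holds 7, which is 6.80% beside 1.68% of all genes. Some of the 7 are neighbours. ELF1 and FOXO1 lie 265 kb apart, and CDADC1 lies 689 and 704 kb from the overlapping DLEU2 and TRIM13.

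When the same rule was applied at the other doses and in the other line, 7 genes met it in U2-OS at 50 nM, all of them among the 103, and 248 at 800 nM. Of the 248, 95 were among the 103, which is 38.3% of the 248 and 92.2% of the 103, and the 2 sets share the DMSO arrays. In SJSA-1 it selected 190, 197 and 163 of the 18132 genes at 50, 200 and 800 nM, of which 24, 6 and 3 were among the 103. The 6 shared at 200 nM were ATF7, DMXL1, JAG1, LINC00839, RGS2 and TAF5L, which are 5.83% of the 103 and 3.05% of the 197. Without drug, 48 of the 103 genes lay above the limit in SJSA-1 by their DMSO mean, where 36.2% of all genes did, while in U2-OS the rule set this number to 0. Those 48 genes could not meet the rule in SJSA-1 at any dose, which bounds the overlap given above.

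Lists of related genes, written with earlier results of these data known, were set against the share of the 103 genes among all genes, 0.568%. Of 43 measured immediate-early and AP-1 genes, ATF3 was the one among the 103, or 2.33%, and over the list 26 rose and 3 fell at 800 against 50 nM in U2-OS, while in SJSA-1 8 rose and 24 fell. Beside these and the list counts that follow stand 12.4% higher and 18.2% lower of all genes in U2-OS and 20.1% and 16.2% in SJSA-1. Of 30 ligands and receptors of growth signalling, HBEGF and BMP2 were among them, or 6.67%, and over the list 10 rose and 8 fell in U2-OS. The lists of chemokines, cytokines and NF-kB feedback (36 measured), p53 targets (26), heat shock (13), the interferon response (23) and replication-dependent histones (67) held 0 of the 103 genes. The rule could take only genes at or below 100 in U2-OS DMSO, in that order 24, 5, 1, 22 and 58 of them. At a share of 0.568%, a count of 0 is no result about lists of these sizes. Of the hypoxia list (19 measured) 14 rose and 2 fell at 800 against 50 nM in U2-OS and 2 rose and 12 fell in SJSA-1. Of 451 numbered zinc finger genes 3 were among the 103, and of 844 non-coding RNA genes 2.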

How the data were processed

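RNA of U2-OS and SJSA-1 cells was hybridized to Affymetrix PrimeView arrays, 24 in all. The deposited values were linear intensities that the authors had normalized. The methods describe RMA, the submitters' processing notes name MAS5 and RMA, and no version was given in the sources used here, nor was it stated whether both lines were normalized together. Background and summary by probe set set the spread of low values, and normalization to equal distributions hides a shift shared by all genes. The value tables held 0 columns of other samples. The number of arrays limits the precision.

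Of 49372 probe sets, 44994 were paired with 1 gene symbol, 1832 with several and 2546 with none, and only the first were used. Symbols were updated through RefSeq for 44967 probe sets, and 27 kept the older one. A gene's brightest probe set, by the mean of the 24 arrays, stood for it. Log2 intensities were tested with limma 3.58.1 (R 4.3.3, lmFit and eBayes) over 18132 genes, with Benjamini-Hochberg adjustment at 0.05, within each line, and over both lines for the difference between them. Opposite movement of probe sets was tested over all 44994. The fits were tested on simulated data. Summaries and figures used Python 3.11.15, pandas 2.3.3, numpy 2.4.6 and matplotlib 3.10.9.

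The rule for named genes took the 12 largest differences at 200 nM against DMSO in U2-OS, the 8 highest and 8 lowest changes at 200 nM in SJSA-1 and the 6 largest at 800 against 50 nM in U2-OS among those passing the test, members of related gene lists and the genes nearest the thresholds, 39 members in all. Others were named after their values were seen. The members and lists were chosen with earlier results of these data known, and the 11 role groups were assigned once the members were known. Alternatives were other scalings, probe set summaries, pseudocounts, filters, tests and thresholds, a replicate block and the omission of each array.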

Additional observations from a re-analysis of the deposited data

Results flagged for a closer look

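The change between 50 and 800 nM THZ531 differed between the lines for most of the 103 genes, by the test of the difference in limma over all genes. It was higher in U2-OS than in SJSA-1 for 92 genes and lower for 2, ITPR1 and STK3. With the average over a gene's probe sets, the values of these 2 genes did not pass, at -0.071 (adjusted p = 0.623) for ITPR1 and 0.14 (adjusted p = 0.235) for STK3 with limma.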

How the results depend on the processing

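With 3 arrays a group and no counts behind them, precision rests on 3 values, and low intensities lie close to background that the normalization does not show. Every direction is relative to the other genes of an array. The poly-A controls stood higher on treated arrays in both lines, so that a scale set by them lowers changes from DMSO. The hybridization controls stood higher on treated arrays in SJSA-1 only. In U2-OS they were at 9.03, 9.11 and 9.15 at 50, 200 and 800 nM, against 9.21 in DMSO. A scale set by them alone raises changes from DMSO in U2-OS, where 153 genes then met the rule. Each gene was read by 1 probe set. Whether the control scale or the deposited scale is nearer to the cells was not tested. The causes of the differences given here were not tested, beyond the smaller number of genes that the filters left.

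With both kinds of control as the scale, 26 genes met the rule, the counts higher and lower were 35 and 25 at 50 nM, 14 higher at 200 nM and 4 higher at 800 nM in SJSA-1 against DMSO, 45 and 11 at 800 against 50 nM in U2-OS, 8 lower for the difference between lines, and 22 genes had probe sets moving both ways in U2-OS. Scales by the poly-A or hybridization controls alone were added after seeing the data. With the poly-A controls alone, 8 genes met the rule, and the counts were 24 higher and 28 lower at 50 nM, 8 higher at 200 nM and 1 higher at 800 nM in SJSA-1, 19 higher and 16 lower in U2-OS, 3 higher at 800 against 50 nM in SJSA-1, and 55 higher and 9 lower for the difference. With the hybridization controls alone they were 15 lower at 50 nM, 22 higher at 200 nM and 18 higher at 800 nM in SJSA-1, and 6 lower for the difference.

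With the mean of all probe sets, 51 genes met the rule, 13 were lower at 50 nM in SJSA-1 and 5 were lower at 800 against 50 nM in U2-OS. A limit of 50 gave 58 genes and a difference of at least 1 gave 10. A second quantile normalization gave 5 lower at 50 nM in SJSA-1 and 0 lower in U2-OS. Median centring, the filter on the mean and the methods' t-test after Benjamini-Hochberg adjustment also gave 0 lower in U2-OS, where the methods' t-test without adjustment gave 1 and 91 higher. The filter on a mean above an intensity of 100 left 38 higher at 50 nM, 27 higher and 13 lower at 200 nM, 20 lower at 800 nM and 38 lower at 800 against 50 nM in SJSA-1, and 56 higher and 4 lower for the difference. With genes above 100 in SJSA-1 DMSO, these counts were 31 higher at 50 nM, 20 higher and 18 lower at 200 nM, 16 higher and 23 lower at 800 nM and 35 lower at 800 against 50 nM.

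The replicate numbers were not taken to pair arrays, since deviations of same-numbered arrays correlated between -0.33 and 0.076 in U2-OS and between -0.41 and 0.26 in SJSA-1. With the replicate block, 92 genes were higher and 0 lower at 800 against 50 nM in U2-OS, and 71 higher at 50 nM in SJSA-1. Over fits without 1 array, the lower counts ranged from 5 to 8 at 50 nM in SJSA-1 (5 without replicate 3 of DMSO or of 50 nM), between 0 and 1 in U2-OS, and from 2 to 4 for the difference (4 without replicate 3 of U2-OS at 50 nM), and the number of genes meeting the rule from 98 to 124. The rise of DYRK2 at 50 nM was lost without replicate 2 of 50 nM (0.26, adjusted p = 0.0614) and the fall of MAFF at 800 nM without replicate 1 of DMSO (-0.16, adjusted p = 0.0602), both in SJSA-1 with limma.

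Among 115 tested values of single genes in the text, 32 of 2413 alternative values turned direction and 72 no longer passed. With both kinds of control, those at 50 nM in SJSA-1 were DYRK2 at -0.061, EDN1 at -0.088, HK2 at -0.13 and RBM33 at -0.041, and at 800 nM ADAMTS12 at -0.052. With the poly-A controls alone they were, at 50 nM, ABHD17B at -0.12, DYRK2 at -0.18, EDN1 at -0.21, FOXO1 at -0.0044, HK2 at -0.25, MAFF at -0.051, RBM33 at -0.16, TAF3 at -0.031, CD83 at -0.021, GLUL at -0.084 and LYN at -0.078. At 200 nM SNAPC3 was at -0.023, and at 800 nM ADAMTS12 at -0.20, HBEGF at -0.14, EIF5A2 at -0.00042, ITPR1 at -0.010, SNAPC3 at -0.084 and STK3 at -0.10. In U2-OS at 800 against 50 nM, URB2 was then at -0.013, CA13 at -0.20 and SGMS2 at -0.27. With the mean of all probe sets, HAUS3 was at -0.07, KMT5B at -0.69, STK17B at -0.77 and TAF3 at -0.072 at 50 nM and TAF5L at -0.14 at 800 nM in SJSA-1, and the difference between lines of STK3 was 0.14.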
